A study of Mus musculus with 6 samples.

Results

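The respiratory chain subunit genes are the nuclear genes for the proteins that build complexes I to V of the mitochondrial inner membrane. A gene was a member when a probe's RefSeq accession mapped to a mouse symbol of the Nduf families a, b, c, s and v, to Sdha, Sdhb, Sdhc or Sdhd, or to the Uqcr, Cox4 to Cox8 or Atp5 families, with pseudogenes left out. By that rule 84 genes were members, of 37153 genes and unnamed features on the array: 37 of complex I, 4 of complex II, 8 of complex III, 18 of complex IV and 17 of complex V. The members were read by 113 probes. Ndufb1, Ndufb4b and Ndufb4c fit the rule but were matched by no probe, and the subunits encoded in mitochondrial DNA were not analysed here.

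RNA of 6 cultures was measured on 1-colour Agilent mouse expression arrays, 2 for each of 3 groups. The first group was muscle-derived stem cells (MDSC) of Mstn-null mice, which lack myostatin, a secreted protein that limits muscle growth. The second was MDSC of wild-type (WT) mice, and the third was W4, an established line of mouse embryonic stem cells (ESC). Both kinds of MDSC were the late-adhering fraction of hindlimb muscle from male mice aged 5 weeks, at passage 1, and the 2 arrays of a genotype held separate isolations. The labels do not say whether isolations came from different mice. W4 ESC are a single line, sampled at passages 12 and 15 after growth on inactivated embryonic fibroblasts, most of which were removed by a brief plating. Their spread is that between 2 cultures of the line, which differed in passage and also in the fibroblast markers given below. No group had been treated.

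Levels are given as log2 signal relative to the array's 75th percentile. By that measure Mstn itself read -3.06 and -2.47 in the Mstn-null cultures, against -4.90 and -6.71 in WT and -7.23 and -6.85 in ESC cultures, with only the Mstn-null arrays well above background. The probe's place relative to the deleted part of the gene is not given in the sources used here, so the probe does not check the genotype, and "Mstn-null" below means the arrays that bear that label. Of the 59305 spots on an array, between 53.3% and 64.6% rose well above background, and 0 were saturated. The 8 pluripotency markers averaged between -3.61 and -3.41 on the MDSC arrays and 5.46 and 5.61 on the ESC arrays. The 2 WT arrays had 1 slide to themselves, and the Mstn-null and ESC arrays shared another, so slide and WT genotype cannot be told apart. MDSC cultures also held transcripts of other cell types. The mean of 7 macrophage markers was 2.26 and 4.25 on the Mstn-null arrays, 0.29 and -1.09 in WT MDSC and -4.14 and -3.28 in ESC, and the mean of 9 fibroblast markers was 6.10 and 6.44, 6.13 and 4.91, and 2.21 and -0.26 on the same arrays.

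Complex I takes electrons from NADH and complex II, which is also the succinate dehydrogenase of the citric acid cycle, from succinate. Both pass them through coenzyme Q to complex III, which hands them to cytochrome c, and complex IV, cytochrome c oxidase, passes them to oxygen. Complexes I, III and IV pump protons, and complex V, the ATP synthase, uses their return to make ATP. Most subunits are made in nearly all cells. Several small subunits of complex IV exist in a ubiquitous form and in forms that mark heart and skeletal muscle, testis or lung, so that this complex changes composition when muscle fibres mature. Pluripotent cells are known to rely strongly on glycolysis.

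The subunit genes were broadly expressed in all 3 kinds of culture. Of the 84 members, 81 were well above background on all 6 arrays. The exceptions were Cox7b2 and Cox8c, which were not well above background on any MDSC array, and Cox8b, which was not well above background on either ESC array. The 2 arrays of a group lay close together for most members, with a median gap of 0.08 between the Mstn-null arrays, 0.11 between the WT arrays and 0.21 between the ESC arrays on the log2 scale. The gap had a direction, most clearly in ESC, where 77 of 84 members were higher at replicate 2 than at replicate 1, against 55.3% of all genes tested. In WT MDSC 61 members were higher at replicate 2, against 58.3% of all genes, and in Mstn-null MDSC 31 were, against 42.5%.

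Between MDSC and ESC the comparison asks how cells from hindlimb muscle differ from pluripotent cells. Of the 8 tissue isoforms 7, all but Cox4i2, differed by more than any other member, in both directions. The ubiquitous subunits differed by at most 0.90 on the log2 scale, and those that passed the test were mostly lower in MDSC. In limma's fit over 25057 genes and features, 5 members were higher and 23 were lower in MDSC (adjusted p under 0.05). The background was wide: 28.3% of all features tested were higher and 31.4% lower. The 23 lower members are 27.4% of the list, near the background, and the 5 higher members are 5.95%. The median difference of the members was -0.22, against -0.03 over all features tested, and 59 of 84 members lay below 0. How many were called depended on the scaling of the arrays: 11 were higher and 16 lower after quantile normalization, whereas 4 were higher and 5 lower after centring on the median. The side of the median turned as well: after quantile normalization 41 of 84 members lay below 0 with a median of 0.0383, and after centring 47 did with a median of -0.0731. Centring ended 18 of the 23 lower calls, leaving Cox6b2, Cox7a1, Cox7b2, Cox8c and Ndufb8, and ended the higher call of Ndufa8. Quantile normalization ended the lower calls of Atp5a1, Atp5b, Atp5c1, Atp5g2, Ndufa6, Ndufa7 and Uqcrfs1. With no filter on dim probes Atp5c1, Cox6a2, Cox8b, Ndufa6, Ndufa8, Uqcrc1 and Uqcrfs1 lost theirs. Leaving out 1 array at a time kept between 9 and 24 of the 28 calls.

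Cox6a2, the heart and skeletal muscle form of the complex IV subunit 6A, was higher in MDSC. Its log2 signal was -1.27 and -0.31 on the Mstn-null arrays, 3.33 and -1.03 in WT MDSC and -3.55 and -4.42 in ESC. All 4 MDSC arrays lay above both ESC arrays, and WT replicate 1 lay far above the other 3. The difference was 4.16 ± 1.25 (SE), or 17.9-fold, with an adjusted p of 0.0374 in limma. It was 3.07, or 8.42-fold, without WT replicate 1 and 5.26, or 38.2-fold, without WT replicate 2, with the call kept in both cases. Its ubiquitous partner Cox6a1 read 8.41 and 8.46 on the Mstn-null arrays, 8.38 and 8.36 in WT MDSC and 7.99 and 8.36 in ESC, a difference of 0.23 ± 0.16 that did not pass the threshold. Over the alternatives run, the Cox6a1 difference ranged from 0.03 to 0.59, and it did pass under an alternative processing of the arrays.

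Cox8b, the muscle form of subunit 8, followed the same order of arrays. It read -3.07 and -1.38 on the Mstn-null arrays, 2.89 and -2.78 in WT MDSC and -6.02 and -7.04 in ESC. Because neither ESC array was well above background, the change is a bound: Cox8b was at least 16.0-fold higher in MDSC (limma, adjusted p = 0.0381). The bound was at least 6.01-fold without WT replicate 1 and at least 42.9-fold without WT replicate 2, and the call was kept in both cases. The bound sets the MDSC mean against the dimmest probe well above background on each ESC array. It depended on the background correction, since after normexp correction Cox8b was 5.97-fold higher, under the 16.0-fold given, with its call lost. The ubiquitous Cox8a differed by -0.10 ± 0.14, which did not pass the threshold.

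WT replicate 1, the array highest for both genes, also had the highest mean of 11 genes of differentiating muscle, which include contractile genes of myotubes. Their mean was -0.15 and -0.66 on the Mstn-null arrays, 3.25 and 0.00 in WT MDSC and -2.59 and -2.48 in ESC, and 11 of 11 were well above background on WT replicate 1 against 9 and 10 on the Mstn-null arrays, 10 on WT replicate 2 and 9 and 8 on the ESC arrays. The part of differentiating cells in the 2 isoform results was not tested, and in whole cultures a larger share of such cells and more RNA per cell cannot be told apart. Both calls were lost without either Mstn-null array (Cox6a2 at 4.40 and 3.93, Cox8b at 5.87 and 5.02), without either ESC array (Cox6a2 at 4.60 and 3.73, Cox8b at 5.96 and 4.93) and after normexp background correction (Cox6a2 at 2.92 and Cox8b at 2.58). With no filter on dim probes they were lost at adjusted p of 0.0523 for Cox6a2 and 0.0532 for Cox8b in limma.

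Cox7a1, the third muscle form, went the other way. It read -0.38 and 0.64 on the Mstn-null arrays, 1.63 and -0.17 in WT MDSC and 2.31 and 2.85 in ESC. The 4 MDSC arrays lay below both ESC arrays, with WT replicate 1 nearest to them. The difference was -2.15 ± 0.60 (limma, adjusted p = 0.0299), a 4.44-fold lower signal in MDSC, and the call was lost without Mstn-null replicate 1 (-1.89), ESC replicate 1 (-2.42) or ESC replicate 2 (-1.88). The muscle forms as a set thus held 2 genes that were higher and 1 that was lower. Cox7a2, the ubiquitous form, differed by -0.33 ± 0.15, and Cox7a2l, which serves in assembling supercomplexes of complexes III and IV, by 0.14 ± 0.15. Neither passed the threshold.

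All 3 testis isoforms were lower in MDSC. Cox6b2, a form of the subunit that joins the monomers of complex IV into a dimer, read 0.48 and 1.30 on the Mstn-null arrays, 0.71 and -0.28 in WT MDSC and 3.20 and 2.82 in ESC. The groups did not overlap, and the difference was -2.46 ± 0.39 (limma, adjusted p = 0.00507), a 5.49-fold lower signal. Its ubiquitous partner Cox6b1 differed by 0.09 ± 0.19.

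Cox7b2 read -6.71 and -6.57 on the Mstn-null arrays, -6.80 and -6.79 in WT MDSC and -3.81 and -3.22 in ESC. Cox8c read -6.60 and -6.50 on the Mstn-null arrays, -6.59 and -6.59 in WT MDSC and -3.81 and -3.33 in ESC. Both were thus well above background in ESC only, at levels far below the 75th percentile. As bounds, Cox7b2 was at least 2.57-fold lower in MDSC (limma, adjusted p = 5.13e-04) and Cox8c at least 2.46-fold lower (adjusted p = 4.49e-04). The calls of Cox6b2, Cox7b2 and Cox8c held under every alternative that tested them. The size of both dim genes depended on the background correction, since after normexp Cox7b2 was 1.55-fold and Cox8c 1.40-fold lower, under the bounds given. Cox7b, the ubiquitous partner of Cox7b2, differed by -0.34 ± 0.15 and did not pass the threshold. Over the alternatives run, the Cox7b difference ranged from -0.45 to -0.10, and it did pass under an alternative processing of the arrays.

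Of the hypoxia-linked forms, 1 passed the test. Ndufa4l2, a relative of Ndufa4 that is induced by hypoxia, read 3.91 and 5.52 on the Mstn-null arrays, 5.36 and 2.97 in WT MDSC and 1.01 and -0.54 in ESC. Each MDSC array lay above both ESC arrays, though the 4 MDSC arrays were themselves widely spread, with the highest and the next highest in different genotypes. The difference was 4.20 ± 0.90, or 18.4-fold (limma, adjusted p = 0.0134), and was 3.43 with an adjusted p of 0.0835 without ESC replicate 2. With the call kept it was 3.60 without WT replicate 1, 4.80 without WT replicate 2 and 4.98 without ESC replicate 1. Ndufa4, counted here with complex I by its name although its protein is now placed in complex IV, differed by -0.16 ± 0.20.

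Cox4i2, the lung and hypoxia form of subunit 4, read -0.45 and -0.62 on the Mstn-null arrays, -0.17 and 0.07 in WT MDSC and -0.67 and -0.58 in ESC. It was slightly higher on both WT arrays than elsewhere, and its difference between MDSC and ESC of 0.33 ± 0.15 did not pass the threshold. Cox4i1, its ubiquitous partner, read 6.89 and 6.90, 7.02 and 7.05, and 7.03 and 7.40 on the same arrays, a difference of -0.25 ± 0.16 that did not pass either.

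**Figure D1:**
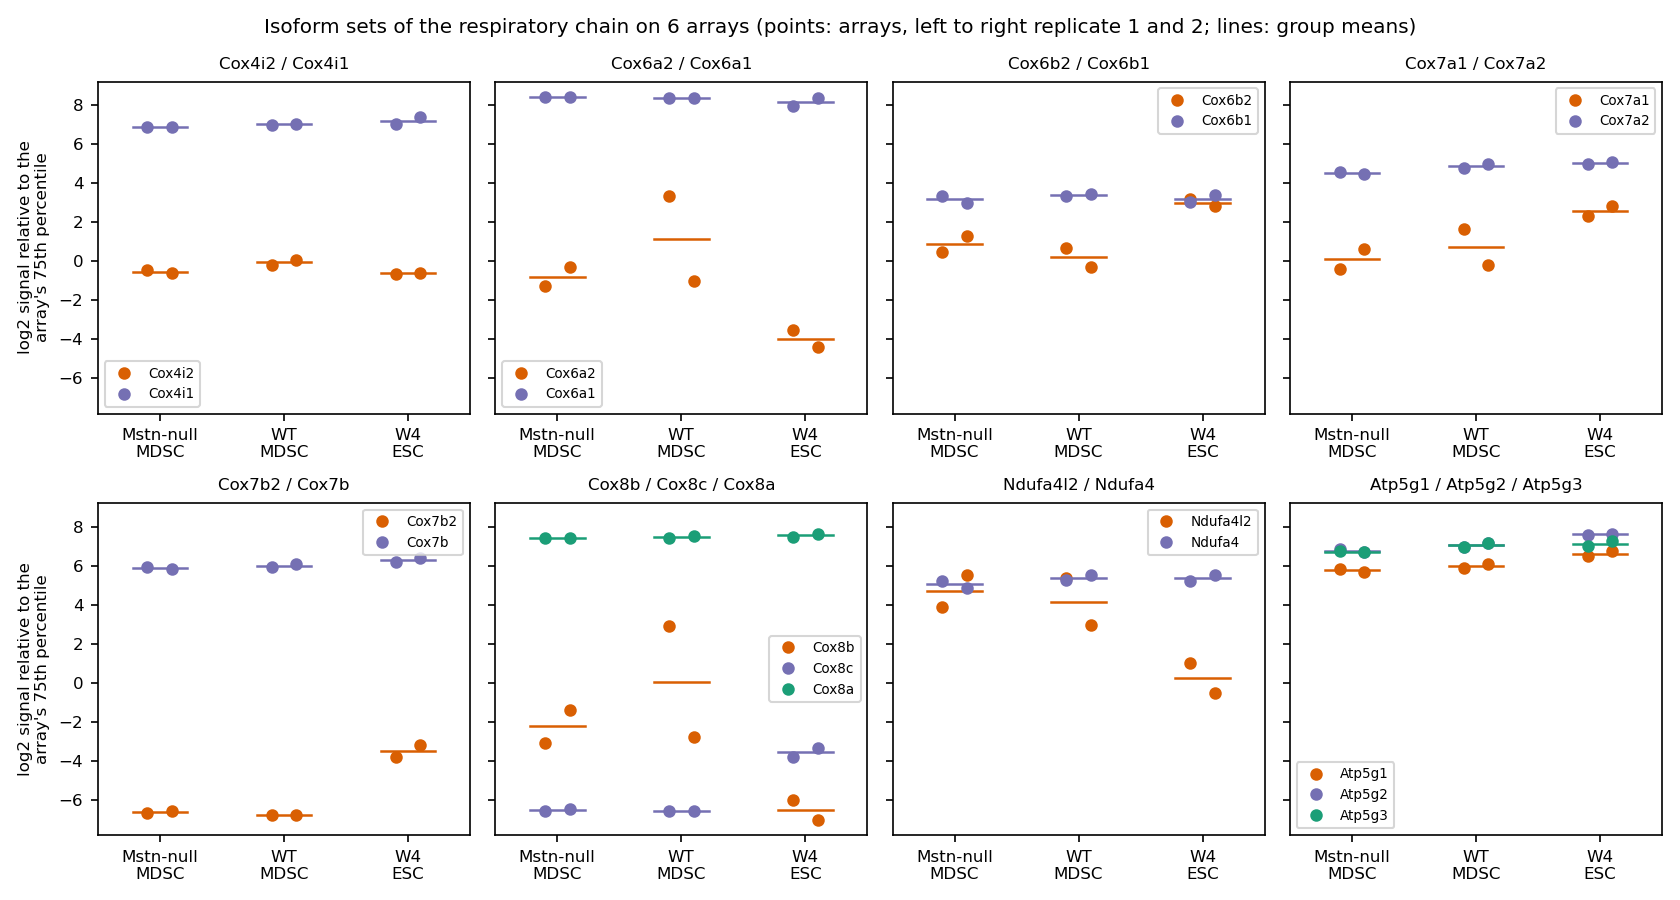
Log2 signal relative to the array's 75th percentile for the isoform sets of the chain in Mstn-null MDSC, WT MDSC and W4 ESC, with 1 point per array (replicate 1 left, replicate 2 right) and lines at group means. Cox6a2, Cox8b and Ndufa4l2 sit higher in MDSC, Cox6b2, Cox7a1, Cox7b2 and Cox8c sit lower, and the ubiquitous partners lie nearly level. Vertical distances between genes reflect different probes and carry no meaning.

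The 5 promoters printed here differ in the letters they hold. The windows below run 5′ to 3′ from 250 bases before to 50 bases after the RefSeq gene start (GRCm38.p6), and show a ubiquitous subunit that did not pass the test, a ubiquitous subunit that was lower, 2 muscle forms that went opposite ways and a testis form. Capitals mark GCGCA and GCGC with any 1 base between them (NRF1), CCGGAAG (GABPA), AAGATGGCG (YY1), AAGGTCA (estrogen-related receptors), CAGCTG (myogenic E-box) and TATAAA, each searched on both strands.
Cox6a1 (chr5:115348909-115349208, minus strand): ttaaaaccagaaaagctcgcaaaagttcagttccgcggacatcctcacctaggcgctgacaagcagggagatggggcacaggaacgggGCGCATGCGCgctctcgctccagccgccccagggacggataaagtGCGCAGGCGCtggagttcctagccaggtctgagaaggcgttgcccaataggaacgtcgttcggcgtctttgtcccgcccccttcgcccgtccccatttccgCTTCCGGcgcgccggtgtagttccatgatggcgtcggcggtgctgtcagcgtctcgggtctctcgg
Ndufs6 (chr13:73328433-73328732, minus strand): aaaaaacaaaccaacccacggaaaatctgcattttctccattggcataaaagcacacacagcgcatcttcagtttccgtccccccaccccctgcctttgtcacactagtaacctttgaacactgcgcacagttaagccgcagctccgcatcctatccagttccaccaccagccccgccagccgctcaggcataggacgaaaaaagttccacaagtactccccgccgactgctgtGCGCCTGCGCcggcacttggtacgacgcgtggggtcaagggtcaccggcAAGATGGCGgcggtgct
Cox8b (chr7:140900397-140900696, minus strand): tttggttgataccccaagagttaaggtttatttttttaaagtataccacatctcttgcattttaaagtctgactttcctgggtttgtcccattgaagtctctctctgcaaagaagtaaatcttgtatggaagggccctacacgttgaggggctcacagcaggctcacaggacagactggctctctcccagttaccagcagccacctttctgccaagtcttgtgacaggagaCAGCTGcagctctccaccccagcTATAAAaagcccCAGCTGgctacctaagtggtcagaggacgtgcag
Cox7a1 (chr7:30183921-30184220, plus strand): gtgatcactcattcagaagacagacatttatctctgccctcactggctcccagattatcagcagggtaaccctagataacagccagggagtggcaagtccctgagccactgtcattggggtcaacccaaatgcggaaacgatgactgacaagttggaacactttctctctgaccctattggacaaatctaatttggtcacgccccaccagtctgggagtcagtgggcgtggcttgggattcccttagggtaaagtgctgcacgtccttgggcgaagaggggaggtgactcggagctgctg
Cox7b2 (chr5:71548156-71548455, minus strand): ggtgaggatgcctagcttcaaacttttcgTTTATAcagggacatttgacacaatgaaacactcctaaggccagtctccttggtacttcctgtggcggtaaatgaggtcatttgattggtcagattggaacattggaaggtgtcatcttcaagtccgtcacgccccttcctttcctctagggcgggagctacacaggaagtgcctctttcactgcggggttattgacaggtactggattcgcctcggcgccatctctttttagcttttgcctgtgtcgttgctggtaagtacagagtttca

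NRF1 and GABPA are transcription factors known for driving nuclear genes of the chain. Of the members, 68 had 73 promoters in the RefSeq table. The NRF1 letters stood in 24.7% of these promoters, against 4.60% of all 32851 promoters of that length and 6.38% of the coding ones. For the GABPA letters it was 23.3%, against 8.86% of all and 11.6% of the coding ones. The YY1 letters stood in 9.59% against 1.40% and 1.83%, and the receptor letters in 11.0% against 4.72% and 4.08%. Myogenic E-box letters were in 8.22% of member promoters against 16.3% and 15.6%, and TATAAA in 12.3% against 13.6% and 12.6%. A search for the MEF2 motif matched 0 member promoters and 0.557% of all. Cox6a1 held the NRF1 letters at 162 and 117 bases before the start and the GABPA letters at 16 bases before it, whereas Cox8b held E-box letters and TATAAA and Cox7a1 none of those searched. Of the 17 genes with the NRF1 letters, 5 were lower and 1 was higher in MDSC, and of the 51 without, 15 were lower and 2 higher. Of the 17 genes with the GABPA letters, 0 were lower or higher, and of the 51 without, 20 were lower and 3 higher. Beside these counts, the background shares stood at 31.4% lower and 28.3% higher. Whether letters and calls go together was not tested. The letters were counted in a window and do not show binding.

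Complex I, the entry point for NADH, held 12 called genes, 3 higher and 9 lower in MDSC, with a median difference of -0.09. The shares were 8.11% higher and 24.3% lower, against 28.3% and 31.4% of all features tested. Ndufb8, an accessory subunit whose protein is lost when the complex does not assemble, had the largest fall. It read 5.19 and 5.15 on the Mstn-null arrays, 5.30 and 5.55 in WT MDSC and 6.15 and 6.24 in ESC. The MDSC arrays all lay below the ESC arrays, by more than the spread within either, and the difference was -0.90 ± 0.15 (limma, adjusted p = 0.00561). Its call held under every alternative.

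Ndufs6, an accessory subunit that binds zinc, read 5.94 and 5.91 on the Mstn-null arrays, 6.09 and 6.26 in WT MDSC and 6.77 and 6.97 in ESC. Ndufv1, the core subunit that binds NADH and flavin, read 5.02 and 4.89, 5.19 and 5.26, and 5.66 and 6.05 on the same arrays. Neither gene's groups overlapped. Ndufs6 fell by 0.82 ± 0.15 (limma, adjusted p = 0.00749) and Ndufv1 by 0.77 ± 0.17 (adjusted p = 0.0151). Centring on the median ended both calls (Ndufs6 at -0.68, Ndufv1 at -0.63), and that of Ndufv1 was also lost without Mstn-null replicate 2 (-0.74) or ESC replicate 2 (-0.57).

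The core subunits of complex I are those shared with bacteria, which carry the flavin, the iron-sulphur clusters and the coenzyme Q site. Of the 7 encoded in the nucleus, 4 were lower and 0 were higher, and their median difference was -0.53. Ndufs1, Ndufs7 and Ndufv2 completed the 4, with differences of -0.58, -0.61 and -0.53. Of the 29 accessory subunits other than Ndufa4l2, 5 were lower and 2 higher, with a median of -0.09. The 4 of 7 and 5 of 29 were not tested against each other, and over all features tested 31.4% were lower. Centring on the median ended all 4 core calls. Without Mstn-null replicate 1 the calls of Ndufs1 (-0.60), Ndufs7 (-0.62) and Ndufv2 (-0.55) were lost, without Mstn-null replicate 2 those of Ndufs1 (-0.56), Ndufs7 (-0.61) and Ndufv2 (-0.51), and without ESC replicate 2 those of Ndufs1 (-0.51), Ndufs7 (-0.53) and Ndufv2 (-0.50). Ndufs1 (-0.53) and Ndufv2 (-0.51) also lost theirs without WT replicate 1, and Ndufv2 (-0.56) without ESC replicate 1.

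The accessory subunits that were higher in MDSC were Ndufa3 and Ndufa8. Ndufa3 read 5.73 and 5.90 on the Mstn-null arrays, 5.77 and 5.76 in WT MDSC and 4.92 and 5.22 in ESC, and Ndufa8 read 3.64 and 3.69, 3.61 and 3.75, and 3.00 and 3.28. Both sets of MDSC arrays lay above the ESC arrays. The differences were 0.72 ± 0.16 (limma, adjusted p = 0.0142) and 0.53 ± 0.15 (adjusted p = 0.0328). That of Ndufa3 lost its call without Mstn-null replicate 2 (0.68) or ESC replicate 1 (0.57). Ndufa8 lost its call without any 1 of 5 arrays, in order Mstn-null replicates 1 and 2 (0.55 and 0.52), WT replicates 1 and 2 (0.57 and 0.50) and ESC replicate 1 (0.40).

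Complex II had no called gene. Sdha, the flavoprotein that oxidises succinate, read 4.39 and 4.22 on the Mstn-null arrays, 4.42 and 4.56 in WT MDSC and 4.43 and 4.73 in ESC. Its groups overlapped. The differences between MDSC and ESC were -0.18 ± 0.16 for Sdha, -0.10 ± 0.13 for the iron-sulphur subunit Sdhb, 0.00 ± 0.13 for the membrane anchor Sdhc and -0.24 ± 0.15 for the anchor Sdhd, and the smallest adjusted p was 0.224 in limma. The second probe of Sdhc gave 0.15.

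Complex III had 3 lower genes of 8 and 0 higher, with a median difference of -0.39. The share lower was 37.5%, against 31.4% of all features tested. Uqcrc1, a core protein of the matrix side, read 3.54 and 3.45 on the Mstn-null arrays, 3.79 and 4.12 in WT MDSC and 4.20 and 4.66 in ESC. Its WT replicate 2 lay next to ESC replicate 1 without overlapping it. The difference was -0.71 ± 0.20 (limma, adjusted p = 0.0323), that of the small subunit Uqcr10 was -0.57 ± 0.13 (adjusted p = 0.0174) and that of Uqcrfs1, the Rieske iron-sulphur protein, was -0.49 ± 0.14 (adjusted p = 0.0319). These calls were fragile. Without ESC replicate 2 Uqcrc1 was at -0.48, Uqcr10 at -0.54 and Uqcrfs1 at -0.40, each with its call lost. Without Mstn-null replicates 1 or 2 the same held, with Uqcrc1 at -0.73 and -0.68, Uqcr10 at -0.57 and -0.58 and Uqcrfs1 at -0.50 and -0.47. Uqcrc1 also lost its call without WT replicate 1 (-0.62), and Uqcrfs1 lost its call without WT replicate 1 (-0.46), WT replicate 2 (-0.51) or ESC replicate 1 (-0.57).

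Among the 11 complex IV genes other than the isoforms of muscle, testis and lung, 2 were lower and 0 higher in MDSC. The share lower was 18.2%, under the 31.4% of all features tested. Cox7c, a small subunit, read 4.77 and 4.66 on the Mstn-null arrays, 5.14 and 5.23 in WT MDSC and 5.62 and 5.92 in ESC. The 3 groups did not overlap, and Mstn-null was the lowest. The difference between MDSC and ESC was -0.82 ± 0.16 (limma, adjusted p = 0.00907), and only centring on the median, among the alternatives run, ended the call (-0.68). Cox5a, the subunit that binds a thyroid hormone metabolite, read 6.45 and 6.44 on the Mstn-null arrays, 6.63 and 6.86 in WT MDSC and 7.17 and 7.57 in ESC. Its arrays also kept that order, and its difference was -0.77 ± 0.18 (adjusted p = 0.0168). The Cox5a call was lost without Mstn-null replicate 1 (-0.78), Mstn-null replicate 2 (-0.77) or ESC replicate 2 (-0.57), and after centring on the median (-0.63).

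Complex V had 5 lower genes of 17 and 0 higher, with a median difference of -0.34. The share lower was 29.4%, near the 31.4% of all features tested. Of the genes for the ring of c subunits, which turns as protons pass, Atp5g1 read 5.85 and 5.71 on the Mstn-null arrays, 5.89 and 6.09 in WT MDSC and 6.52 and 6.75 in ESC. Atp5g2 read 6.87 and 6.70, 6.997 and 7.18, and 7.61 and 7.62, and Atp5g3 read 6.74 and 6.71, 6.95 and 7.17, and 7.03 and 7.27. The mature protein of the 3 genes is the same, and only Atp5g3 had MDSC and ESC arrays that overlapped. Atp5g1 differed by -0.75 ± 0.16 (limma, adjusted p = 0.0119), Atp5g2 by -0.68 ± 0.14 (adjusted p = 0.0127) and Atp5g3 by -0.25 ± 0.15 (adjusted p = 0.209). The difference between the genes was not tested. The call of Atp5g1 was lost without ESC replicate 2 (-0.64), and that of Atp5g2 without Mstn-null replicate 2 (-0.64) and after quantile normalization (-0.29). Centring on the median ended both (Atp5g1 at -0.61, Atp5g2 at -0.54).

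The catalytic head of complex V is built by 5 of the genes, and 3 of them, Atp5a1, Atp5b and Atp5c1, were lower. That is 60% of a list of only 5, against 31.4% of all features tested, and was not tested. Atp5b, the subunit that makes ATP, read 7.34 and 7.16 on the Mstn-null arrays, 7.49 and 7.69 in WT MDSC and 7.90 and 8.16 in ESC, without overlap. Its difference was -0.61 ± 0.16 (limma, adjusted p = 0.0256). The 3 calls were lost after quantile normalization, when Atp5b was at -0.19, and after centring on the median. They were also lost without Mstn-null replicate 1 (Atp5a1 at -0.60, Atp5b at -0.65, Atp5c1 at -0.53), Mstn-null replicate 2 (-0.57, -0.57 and -0.53), WT replicate 1 (-0.52, -0.56 and -0.45) or ESC replicate 2 (-0.46, -0.48 and -0.44), and that of Atp5c1 without ESC replicate 1 (-0.62).

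**Figure D2:**
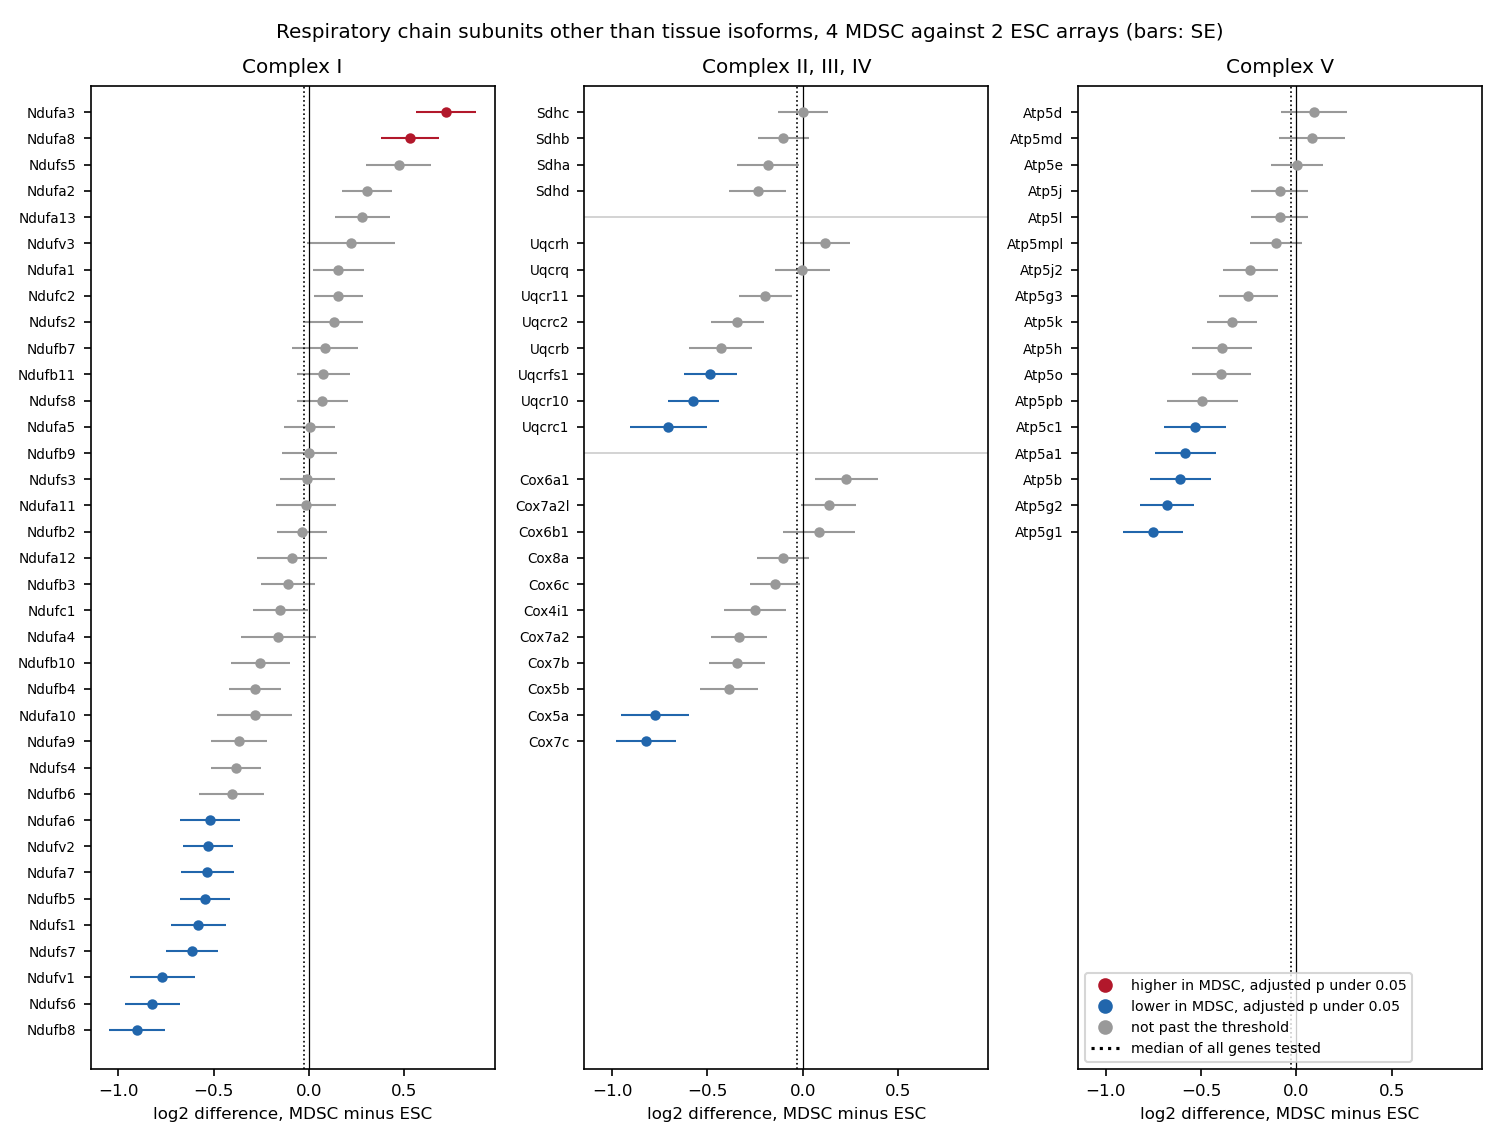
Log2 difference, MDSC minus ESC, for the 76 members other than tissue isoforms, by complex, with bars of 1 SE and the median of all genes tested dotted. The called genes are 2 higher and 19 lower in MDSC, all within 0.90 of 0.

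The genotypes were also set against ESC one at a time. In Mstn-null MDSC 2 members were higher and 25 lower than in ESC, against 23.3% and 30.8% of all features tested. In WT MDSC 5 were higher and 12 lower, against 27.1% and 25.9%. The members' median was -0.30 in Mstn-null MDSC, against -0.12 over all features, and -0.09 in WT MDSC, against 0.03. Both comparisons share the ESC arrays. Cox6a2 and Cox8b passed the threshold in WT MDSC only, Cox6a2 with differences of 3.19 in Mstn-null MDSC and 5.13 in WT MDSC and Cox8b at least 7.28-fold higher in Mstn-null MDSC and at least 35.4-fold higher in WT MDSC, which does not show a difference between the genotypes. Cox4i2 was 0.57 higher in WT MDSC than in ESC (limma, adjusted p = 0.0443) and differed by 0.09 in Mstn-null MDSC. That call was lost without any 1 of the 6 arrays (0.45 to 0.70), after centring on the median (0.64), with no filter on dim probes and when only the groups compared were fitted (0.57).

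Between Mstn-null and WT MDSC, the comparison that asks what loss of myostatin goes with, no respiratory chain gene passed the threshold. The count was 0 of 84 higher and 0 of 84 lower in limma, against 0% of the 25057 features tested, and the smallest adjusted p among the members was 0.313. At an unadjusted p under 0.05 there were 2 members and 3671 features in all. The members nonetheless lay mostly on 1 side. Of the 84, 74 had a lower mean in Mstn-null MDSC, or 88.1%, against 63.3% of all features, and their median was -0.19, against -0.12. In 58 members both Mstn-null arrays lay below both WT arrays, where 34.8% of all features did so. The side depended on the scaling, since 52 of 84 lay below 0 after quantile normalization and 46 after centring on the median, when the medians were -0.06 and -0.03.

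The members with the smallest p, none of which passed, were Cox4i2, Cox7c, Ndufc2, Cox7a2 and Ndufa5. The difference of Cox4i2, whose levels stand above, was -0.48 ± 0.18 (limma, adjusted p = 0.313), and that of Cox7c was -0.47 ± 0.18 (adjusted p = 0.334). Ndufc2, an accessory subunit of complex I, read 4.76 and 4.73 on the Mstn-null arrays and 5.07 and 5.14 on the WT arrays, a difference of -0.35 ± 0.15 (adjusted p = 0.377). Cox7a2 read 4.57 and 4.49 on the Mstn-null arrays and 4.77 and 5.00 on the WT arrays, a difference of -0.36 ± 0.17 (adjusted p = 0.437). In all 5, which were picked by that p, the Mstn-null arrays lay below the WT arrays, as in 58 of the 84 members and 34.8% of all features. Ndufa5, at -0.31 ± 0.15 (adjusted p = 0.464), was read by 2 probes, which gave -0.31 each.

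The largest differences between the genotypes belonged to the muscle forms and came from 1 array. Cox8b was -2.28 ± 1.90 and Cox6a2 -1.94 ± 1.45 in Mstn-null relative to WT MDSC (limma, adjusted p of 0.644 and 0.608). For both genes WT replicate 2 lay among the Mstn-null arrays, so the groups overlapped.

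**Figure D3:**
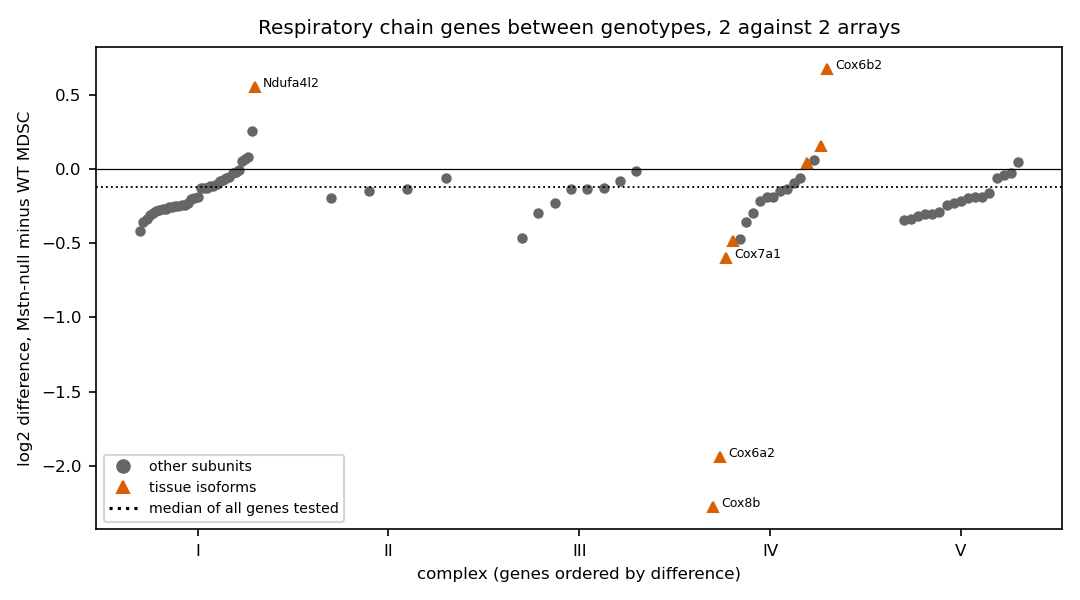
Log2 difference, Mstn-null minus WT MDSC, for each of the 84 members by complex, with tissue isoforms as triangles and the median of all genes tested dotted. Of the 84 genes 74 lie below 0, none passed the threshold, and Cox6a2 and Cox8b lie lowest at -1.94 and -2.28.

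Genes that serve the chain without belonging to it by the rule were counted beside the 28.3% higher and 31.4% lower over all features tested. The median was -0.54 for 10 further genes of the chain and its electron carriers and regulators, of which 1 was higher and 5 lower. Dhodh, which feeds electrons from pyrimidine synthesis into coenzyme Q, differed by -2.48 ± 0.22 and Cyc1, the cytochrome c1 of complex III, by -1.20 ± 0.18. Cyct, the testis form of cytochrome c, was well above background on 1 of 4 MDSC arrays and on neither WT array, and was at least 34.2-fold lower in WT MDSC than in ESC (limma, adjusted p = 8.39e-04). Over both genotypes, its 43.1-fold lower signal in MDSC became 9.29-fold after normexp correction. Etfdh, which feeds in electrons from fatty acid oxidation, was higher by 1.01 ± 0.20.

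The assembly factors of complex I had 1 higher and 6 lower of 15, with a median of -0.37. Ndufaf6 read 0.21 and 0.06 on the Mstn-null arrays, 0.14 and 0.51 in WT MDSC and 2.31 and 2.42 in ESC, without overlap, and differed by -2.13 ± 0.17 (limma, adjusted p = 8.18e-04). Nubpl, which delivers iron-sulphur clusters, differed by -1.85 ± 0.16, Ecsit by -1.52 ± 0.14 and Tmem70, which also serves complex V, by 0.97 ± 0.14. Of 29 tested factors for complexes II to V, 8 were higher and 13 lower. Coa7 at -1.82, the copper chaperone Cox11 at -1.32 and the RNA-binding Lrpprc at -1.30 stood lowest, and Cox20 at 1.16, Cox14 at 0.89 and the complex III factor Ttc19 at 0.88 highest.

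Of 12 genes for coenzyme Q synthesis and handling, 3 were higher and 5 lower. Pdss1, which makes the tail of the molecule, differed by -1.95 ± 0.34, Coq4 by -1.11 and Coq5 by -1.01, while Coq10a was higher by 1.14, Coq10b by 1.095 and Coq8b by 0.72. Of 18 citric acid cycle genes 0 were higher and 5 lower, led by Idh3a at -1.09, Suclg2 at -1.03 and Suclg1 at -0.77. The cycle's median was -0.13. Among 9 carriers, 1 was higher and 4 lower. Slc25a4, the adenine nucleotide carrier typical of heart and muscle, was higher by 0.91 ± 0.22, Slc25a5, the form of dividing cells, was lower (-1.15 ± 0.27), and the testis form Slc25a31 was at least 4.12-fold lower, though 1.78-fold lower after normexp correction. The outer membrane channel gene Vdac1 differed by -0.67.

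The lists most often lower were those of gene expression and import. Of 16 regulators of mitochondrial gene expression 3 were higher and 12 lower, with a median of -0.91. Tfam, which packages and transcribes mitochondrial DNA, read 1.71 and 1.44 on the Mstn-null arrays, 1.57 and 1.65 in WT MDSC and 3.31 and 3.39 in ESC. The groups were far apart, and the difference was -1.76 ± 0.15 (limma, adjusted p = 9.66e-04). Esrrb, an orphan receptor that is also a pluripotency factor, differed by -9.05 ± 0.40 (-7.998 after normexp correction) and Mterf1a by -1.83 ± 0.26. The coactivator gene Ppargc1a, known for driving mitochondrial content in muscle, was at least 7.16-fold higher in MDSC, with neither ESC array well above background, though 2.68-fold higher after normexp correction and 5.76-fold with the mean over its probes. Esrra and Tfb2m were higher by 0.93 ± 0.14 and 0.68 ± 0.14.

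Of 21 import genes, 1 was higher and 15 lower (median -0.99), among them Timm8a1 at -1.78, Timm10 at -1.62 and the chaperonin Hspd1 at -1.61, with Tomm22 higher by 0.55. Of 36 genes of the mitochondrial ribosome, which makes the subunits encoded in mitochondrial DNA, 1 was higher and 21 lower (median -0.71), among them Mrpl15 at -2.26, Mrps5 at -2.05 and Mrpl1 at -1.82, with Mrpl33 higher by 0.68. The shares lower were 71.4% and 58.3%, against 31.4% over all features tested and 27.4% of the respiratory chain genes. Differences between lists were not tested. Of the genes named from these lists, calls were lost without ESC replicate 1 for Coq10b (0.84), Coq8b (0.70), Slc25a5 (-1.24), Slc25a4 (0.60), Tomm22 (0.56) and Mrpl33 (0.67). Without ESC replicate 2 they were lost for Coq8b (0.74), Idh3a (-0.88), Suclg1 (-0.57), Slc25a5 (-1.06), Vdac1 (-0.58), Tomm22 (0.54) and Mrpl33 (0.69). Without Mstn-null replicate 1 they were lost for Coq8b (0.73), Vdac1 (-0.65), Slc25a4 (0.86), Tomm22 (0.55) and Mrpl33 (0.65), and without Mstn-null replicate 2 for Coq8b (0.72), Suclg1 (-0.73), Slc25a5 (-1.07), Vdac1 (-0.69) and Tomm22 (0.55). Without WT replicate 1 the call was lost for Slc25a4 (0.88) and without WT replicate 2 for Tomm22 (0.46). Quantile normalization ended the call of Vdac1 (-0.37), and centring on the median those of Vdac1 (-0.53) and Suclg1 (-0.62). With no filter on dim probes that of Tomm22 (0.55) was lost. On the slide shared by the Mstn-null and ESC arrays, those of Slc25a4 (0.75), Tomm22 (0.45) and Mrpl33 (0.55) were lost.

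**Figure D4:**
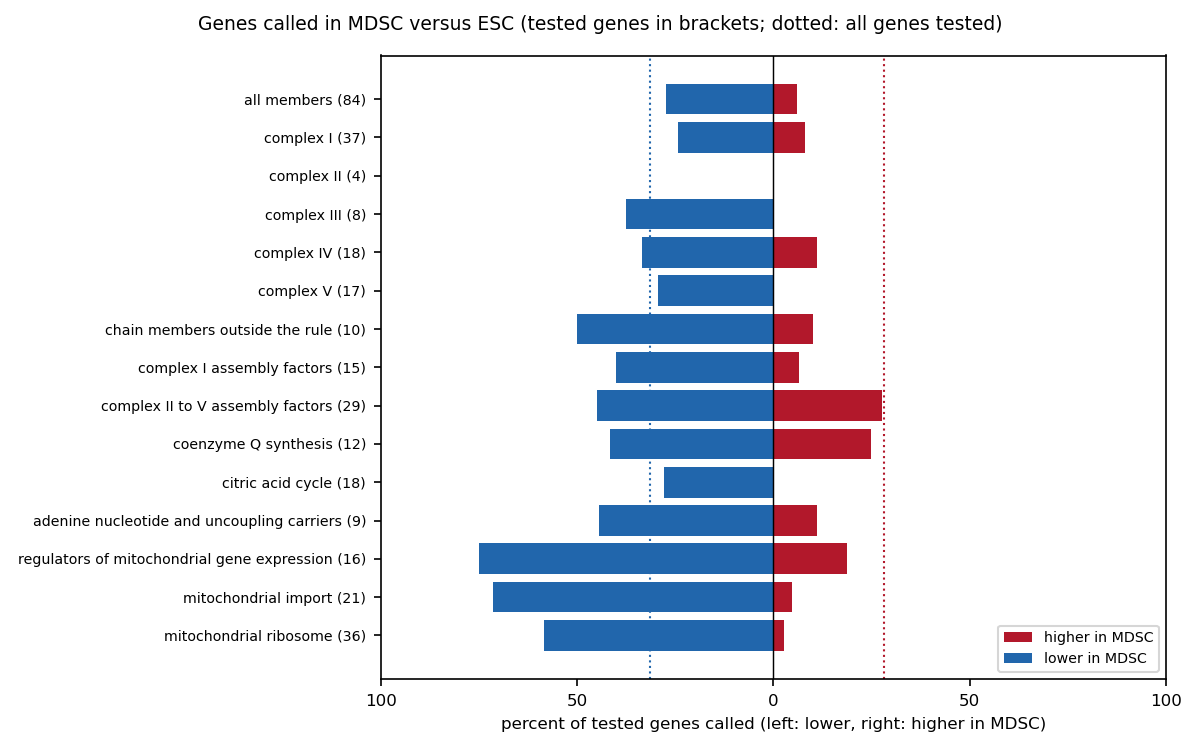
Percent of tested genes that were lower (left) or higher (right) in MDSC than in ESC, for the members, each complex and the lists of related genes, with the number tested in brackets. Dotted lines mark 31.4% lower and 28.3% higher over all features tested. On the left, every list of related genes except the citric acid cycle extends past the line, furthest for regulators, import and the mitochondrial ribosome. Complex III (37.5%) and complex IV (33.3%) also pass it, whereas the full list of members and complexes I, II and V do not.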

How the data were processed

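RNA was measured on 6 1-colour Agilent arrays. The deposited files hold spot intensity values from Agilent Feature Extraction 10.7.1.1, per the file headers (the submitters' processing notes name version 9.1), and the processed signal used here is background-subtracted by the authors' scanner software. Control spots and outlier flags were left out, each array was divided by its 75th percentile, log2 was taken and the spots of a probe were averaged. Probes were named by matching RefSeq accessions to a RefSeq gene table. Of 55681 probes 26413 had 1 symbol, 29268 stayed unnamed, and the brightest probe stood for a gene. Among the 84 members 22 had several probes, of which 3 had probes of both signs between MDSC and ESC (Ndufa5, Ndufb11 and Sdhc). A gene was tested if 1 or more groups had it well above background on both of their arrays, in limma 3.58.1 (R 4.3.3; 3 residual and 2.02 prior degrees of freedom), with all 3 groups in 1 fit and Benjamini-Hochberg adjustment over 25057 features at 0.05. MDSC is the mean of both genotypes. With 2 arrays a group an exact permutation test cannot go below p = 0.333, so none is given, and p-values measure only the spread between these arrays, whose number limits the precision. Pseudogenes left out of the rule numbered 18. Probe sequences were not compared with pseudogenes, so shared signal was not checked.

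Members and lists were chosen with earlier results of these data known. The genes named are the isoform sets in full, the members of complex II, up to 3 called genes in each direction per complex and per related list by size of the difference between MDSC and ESC, and the 5 members with the smallest p between genotypes. Ndufs1, Ndufs7, Ndufv2, Cox5a, Atp5a1 and Atp5c1 were added after their values were seen. The fit was tested on simulated data. Alternatives were quantile normalization, centring on the median, normexp background correction, no filter and a stricter filter on dim probes, outlier spots kept, the mean over a gene's probes, only the groups compared, limma with a variance trend, each array left out, the replicate number as a block, and 1 slide alone. Isolation numbers do not pair the arrays of the genotypes. The correlation of same-numbered deviations was -0.40.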

Additional observations from a re-analysis of the deposited data

How the results depend on the processing

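The count of members called between MDSC and ESC (5 higher, 23 lower) moved with the scaling and with the arrays left in, while 0 were called between Mstn-null and WT MDSC under every setting, the replicate block (0) and the crossed pairing (0) included. Quantile normalization gave 11 higher in MDSC, 7 higher and 14 lower in Mstn-null MDSC and 10 higher in WT MDSC. Centring on the median gave 5 lower in MDSC, 5 lower in Mstn-null MDSC, and 3 higher and 3 lower in WT MDSC. Normexp correction gave 20 lower in WT MDSC, and no filter on dim probes gave 2 higher in MDSC, and 3 higher and 5 lower in WT MDSC. Fitting only the groups compared gave 4 higher in Mstn-null MDSC, and 1 higher and 4 lower in WT MDSC; the variance trend, and the slide that held both groups, each gave 4 higher in Mstn-null MDSC. With 1 array left out the counts ranged from 1 to 4 higher and 7 to 20 lower in MDSC, from 0 to 4 and 3 to 22 in Mstn-null MDSC and from 0 to 3 and 3 to 9 in WT MDSC; without WT replicate 1 and ESC replicate 1, chosen after seeing the data, they were 3 and 11, 3 and 15, and 1 and 3. The median of all features between MDSC and ESC was -0.03, and 0.09 after quantile normalization and 0.12 after centring on the median, when the members' medians relative to it were -0.19, -0.05 and -0.19.

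The members' median turned positive after quantile normalization in MDSC (0.0383) and WT MDSC (0.0258), and with 1 array left out it ranged from -0.209 to 0.00147 in WT MDSC. Differences that had not passed the threshold turned sign after quantile normalization for Cox4i1 (0.11), Cox8a (0.29), Ndufa4 (0.0654), Atp5g3 (0.10), Sdhb (0.0987) and Sdhc (0.0909), after centring on the median for Cox8a (0.0394), Sdhb (0.0424) and Sdhc (0.142), and with the mean over probes for Sdhc (0.0730). With 1 array left out Cox6b1 ranged from -0.0981 to 0.270, Sdhc from -0.0602 to 0.0586 and Ndufa4 from -0.331 to 0.0110. Cox6b1 was also at -0.0840 without WT replicate 1 and ESC replicate 1 and at -0.0224 on the slide with both groups. The cause was not tested. Slide as a random block had an estimated correlation of 0, and no fit with it was run. Because the WT arrays had a slide to themselves, that estimate cannot detect an offset of their slide. Normexp correction shrank the dim Cox7b2 and Cox8c to -0.63 and -0.48 with their calls kept. Dim probes limit precision: Cox7b2, Cox8c and Cox8b have only bounds, and after normexp correction each fold between MDSC and ESC lay under its bound.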
